A study of Mus musculus with 6 samples.

Results

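The genes described here are those that build and load the major histocompatibility complex (MHC) of the mouse, measured by RNA-seq in epididymal white adipose tissue (eWAT). They were chosen by name: every gene whose symbol begins with H2-, the mouse MHC prefix, together with B2m, Cd74, Ciita, Nlrc5, Tap1, Tap2, Tapbp, Tapbpl, Erap1, Cd1d1, Mr1 and Rfx5. This gave 53 of the 45777 genes of the deposited table. By annotated product they comprise 2 classical class I heavy chains, 28 non-classical class I genes and pseudogenes, 10 class II genes and pseudogenes, 12 accessory genes, and H2-Ke6, which lies in the MHC and encodes a steroid dehydrogenase (Hsd17b8) instead of a presenting molecule. All 53 matched a RefSeq gene, and 44 of them lie on chromosome 17 of GRCm38.p6, between bases 33919478 and 37483554.

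The study asked how loss of the kinase Pak4 from adipose tissue alters the fasted fat transcriptome. Its 6 libraries came from C57BL/6 mice fasted for 24 h: 3 from Pak4 flox/flox mice (labelled WT) and 3 from Adipoq-Cre; Pak4 flox/flox mice (labelled KO). Both groups thus carried the floxed alleles, and only the KO group carried Cre, driven by the Adipoq gene that adipocytes express, so other cells of the fat pad are not targeted. The labels name adipocytes as the cell type, but the protocol takes whole excised tissue, and the titles number the replicates without saying that each is a separate mouse. The p-values therefore measure only the spread between these libraries, which may be technical.

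The libraries held between 62854465 and 72005658 counts. Pak4 itself stood at 5.53, 5.03 and 5.84 CPM (counts scaled to the TMM-adjusted library size, used throughout) in the libraries labelled WT and at 12.1, 10.7 and 9.06 in those labelled KO. It was therefore higher, not lower, in every library labelled KO, with a log2 fold change of 0.96 ± 0.14 (SE) that did not pass edgeR's quasi-likelihood test (Benjamini-Hochberg adjusted p = 0.0898), and every direction below is given by label. On the first principal component the library KO 1 lay between the other KO libraries and the WT libraries. The adipocyte markers were abundant, summing to 46813 to 53901 CPM over the 6 libraries, while macrophage markers summed to 2127 to 3076 CPM, so the libraries also held RNA of immune cells. Epididymal and sperm markers summed to at most 0.765 CPM, with Defb42, Lcn5, Lcn8 and Spink11 at 0.

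MHC class I molecules consist of a polymorphic heavy chain and beta-2 microglobulin (B2m); they sit on nearly all nucleated cells and show peptides from inside the cell to CD8 T cells. Class II molecules pair an alpha with a beta chain, are made mainly by dendritic cells, macrophages and B cells, and show peptides from endocytosed protein to CD4 T cells. Both classes are switched on through promoter elements called the X and Y boxes, where the RFX complex, CREB-family factors and NF-Y assemble and recruit a coactivator, NLRC5 for class I and CIITA for class II; class I promoters add a kappa B site and an interferon-stimulated element. In fat, macrophages are the most abundant of the class II cells, and adipocytes have been described to make class II as well.

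The promoters of 6 members are shown because these elements can be read in them: the most abundant heavy and class II chains with an entry (H2-D1, H2-K1 and H2-Aa), the class II chain H2-Eb1, the non-classical H2-T23 and the class I light chain B2m. The sequences are RefSeq's on GRCm38.p6, running 5′ to 3′ on the gene's strand and covering the 190 bases before the annotated transcription start. Capitals mark matches on either strand to 5 motifs. The X box is searched by its end, ACTGATG. The cAMP-responsive core next to it, the X2 box, is searched as TGACG. The Y box, where NF-Y binds, is searched as ATTGG, the reverse complement of the CCAAT box. The remaining motifs are the kappa B core GGGATTCCC and the interferon element TTTCNNTT.
H2-Aa, chr17:34287824-34288013, minus strand: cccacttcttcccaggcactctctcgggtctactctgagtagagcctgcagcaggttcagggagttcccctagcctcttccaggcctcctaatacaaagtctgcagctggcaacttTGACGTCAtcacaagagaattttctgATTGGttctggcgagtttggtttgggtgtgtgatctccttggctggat
H2-Eb1, chr17:34305677-34305866, plus strand: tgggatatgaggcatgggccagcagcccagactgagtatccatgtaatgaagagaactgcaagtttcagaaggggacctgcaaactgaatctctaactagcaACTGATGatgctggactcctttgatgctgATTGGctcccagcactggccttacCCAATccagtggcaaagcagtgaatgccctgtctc
H2-K1, chr17:34000348-34000537, minus strand: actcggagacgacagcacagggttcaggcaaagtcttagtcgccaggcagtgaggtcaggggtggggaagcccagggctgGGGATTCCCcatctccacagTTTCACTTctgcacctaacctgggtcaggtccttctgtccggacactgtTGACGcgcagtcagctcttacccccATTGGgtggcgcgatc
H2-D1, chr17:35262904-35263093, plus strand: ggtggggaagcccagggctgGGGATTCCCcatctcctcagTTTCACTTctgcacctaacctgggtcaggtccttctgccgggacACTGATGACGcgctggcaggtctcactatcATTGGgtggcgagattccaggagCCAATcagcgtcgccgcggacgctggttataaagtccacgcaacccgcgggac
H2-T23, chr17:36032702-36032891, minus strand: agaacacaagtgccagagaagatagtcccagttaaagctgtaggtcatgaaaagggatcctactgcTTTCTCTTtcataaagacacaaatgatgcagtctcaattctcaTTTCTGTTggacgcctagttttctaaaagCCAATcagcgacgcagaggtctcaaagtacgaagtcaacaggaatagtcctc
B2m, chr2:122147497-122147686, plus strand: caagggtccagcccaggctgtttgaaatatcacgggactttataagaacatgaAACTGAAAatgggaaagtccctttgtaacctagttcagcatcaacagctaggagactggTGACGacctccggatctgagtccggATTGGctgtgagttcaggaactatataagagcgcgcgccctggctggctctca
In the H2-D1 promoter the X box end and the X2 core overlap within one run, and the H2-Aa promoter reads the X2 core on both strands at the same place. H2-K1 has 2 promoter entries, and the window shown is that of one of them. This window lies inside the annotated span of the gene, whose outermost start is further upstream. The H2-K1 and H2-D1 promoters share the kappa B core with an interferon element behind it, which neither class II promoter shows in this window, whereas a Y box stands in all 6.

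**Figure D1:**
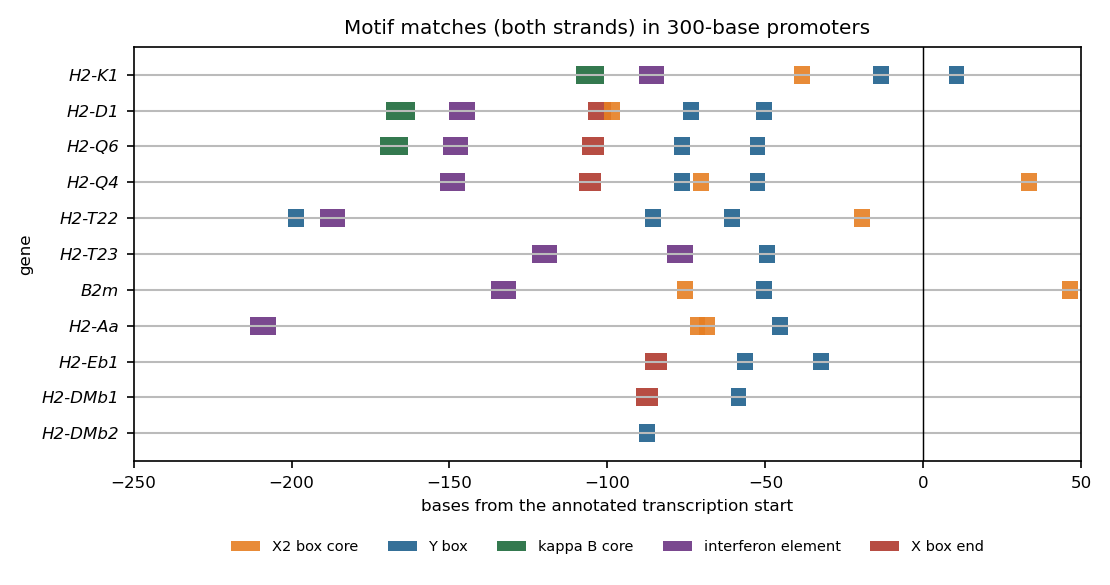
Matches to the 5 motifs in the promoters of 11 members, the 6 printed and 5 close relatives, as distance in bases from the annotated transcription start, on both strands. A Y box is marked in each of the 11, and the kappa B core in H2-K1, H2-D1 and H2-Q6.

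Over the 38 members with a promoter entry of 300 bases (250 before to 50 after the start), 33 held a Y box, against 41.1% of the 27025 genes in the table. All 8 class II promoters and 20 of 23 class I promoters held one. The X box end was found in 11 of 23 class I and 3 of 8 class II promoters, against 3.69% of all promoters. The X2 core stood in 11 of 23 class I promoters and 1 of 8 class II promoters, against 23% of all. The kappa B core was found in 4 of 23 class I promoters and none of the 8 of class II, against 0.414% of all, and the interferon element in 15 of 23 and 4 of 8, against 26.7%. These matches are descriptions of letters, several of the class I promoters are copies of one another, and the motifs were chosen with the sequences in view.

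No member passed the adjusted threshold between the labels, although some had libraries that lay apart by label. Of the 53 members, 39 passed the filter on low counts and none passed an adjusted p of 0.05 in edgeR's quasi-likelihood test, whose background was low: 3 of 17820 genes, or 0.0168%, passed. An unadjusted p under 0.05 was reached by 9 of the 39 (23.1%), against 19.4% of all genes tested, namely H2-T23, Rfx5, Mr1, H2-Ke6, H2-Q4 and H2-M3 with higher values in KO and Cd1d1, Ciita and Tapbp with lower values. The 3 libraries of one label lay apart from the 3 of the other in 9 of the 39 (23.1%), against 26.2% of all genes. All KO libraries lay above all WT libraries in 5 members (background 13.7%) and below them in 4 (background 12.5%). The members' shares were thus close to those of all genes.

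Of the 13 alternative fits, only DESeq2 and the one without KO 1 made calls among the 39 tested members. In both, the members' share was close to that of all genes. DESeq2 called 1152 of 17820 genes (6.46%), of which 3 are members: Cd1d1 (adjusted p = 8.5e-06), H2-T23 (adjusted p = 0.0139) and Rfx5 (adjusted p = 0.0196). Without the library KO 1, edgeR called 1138 genes (6.39%), of which 2 are members: Cd1d1 (adjusted p = 0.0267) and H2-T23 (adjusted p = 0.0271).

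The medians of class I and class II had opposite signs, and no member of either class passed the test. The 17 tested class I members had a median log2 fold change of 0.13, with 11 above 0 and 6 below. The 9 tested class II members had a median of -0.18, with 2 above 0 and 7 below. The median over all genes tested was 0.02. Tested members are those with enough counts, so these medians describe them and not the whole families. Scaling by library size alone, which moved the median of all genes to 0.13, gave medians of 0.26 and -0.05, with 4 of 17 class I and 6 of 9 class II members below 0. The class II median was -0.05 without the library WT 2 and -0.32 without KO 2, and the class I median was 0.02 without KO 2. Without the filter on low counts the class I median was 0.31, over 21 members instead of 17.

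**Figure D2:**
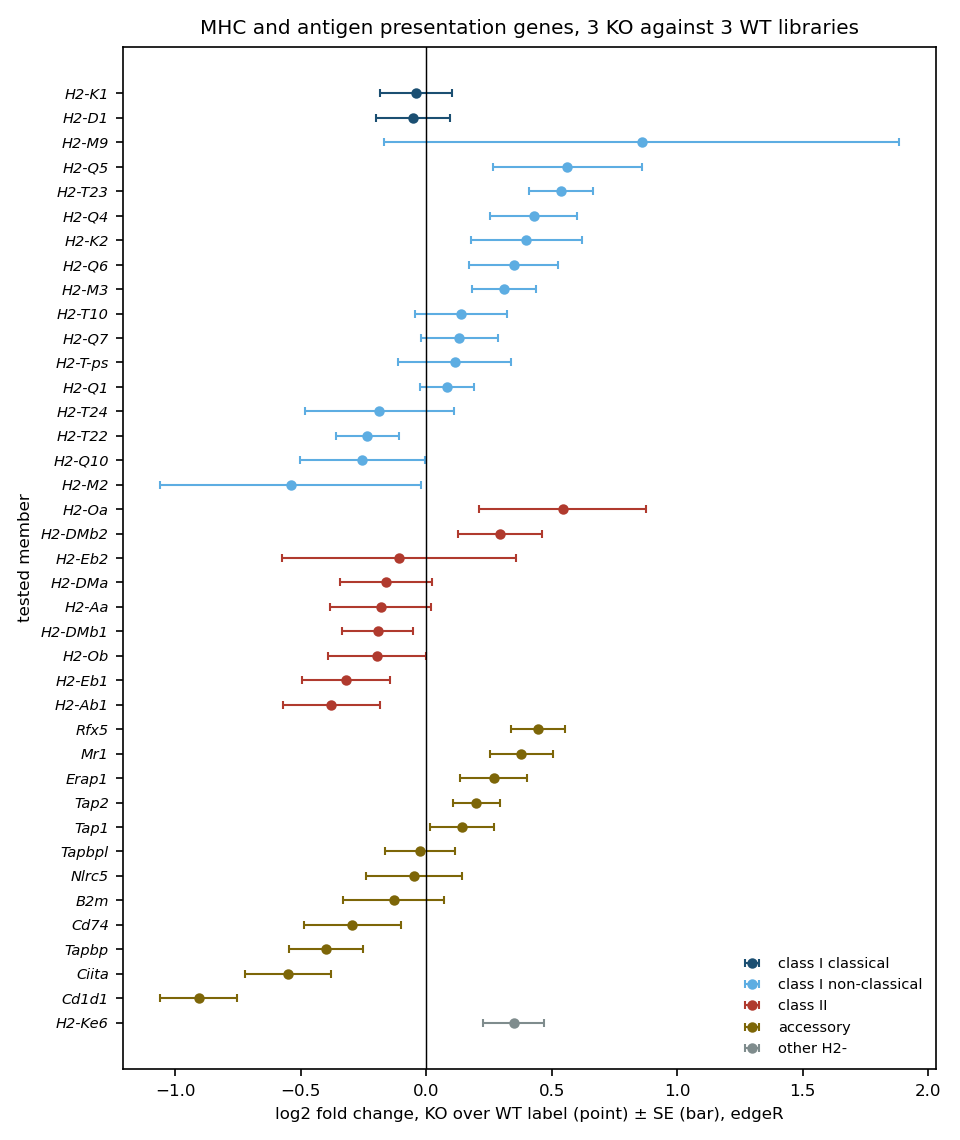
Log2 fold change, KO over WT label, of the 39 tested members with its SE, grouped by role. The class II points lie mostly left of 0 with bars near or across it, Cd1d1 lies lowest among the abundant members, and no member passed the adjusted threshold.

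Class I heavy chain transcript was more abundant than class II in every library. Per length, in deposited TPM, the class I genes summed to 3343, 3124 and 3002 in WT and to 3001, 3759 and 2942 in KO. That is 3156 ± 173 TPM (SD, n = 3) against 3234 ± 456 (SD, n = 3), and the groups overlap. The class II genes summed to 1471, 1979.6 and 1559 TPM in WT and to 1243, 1873 and 1326 in KO, or 1669.9 ± 272 against 1481 ± 343 (SD, n = 3 each), again overlapping. Class II over class I was 0.440, 0.634 and 0.519 in WT and 0.414, 0.498 and 0.451 in KO. The mean log2 of this ratio was 0.21 lower in value in KO (a difference of -0.21), against a pooled SD of 0.21 between libraries of one label, and 3 libraries against 3 cannot give an exact permutation p under 0.1. This difference was -0.08 without WT 2 and -0.34 without WT 1. A few genes carry each sum: H2-K1 and H2-D1 made up 85.2% to 87.7% of the class I TPM, and H2-Aa, H2-Ab1 and H2-Eb1 95.4% to 96.7% of the class II TPM.

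**Figure D3:**
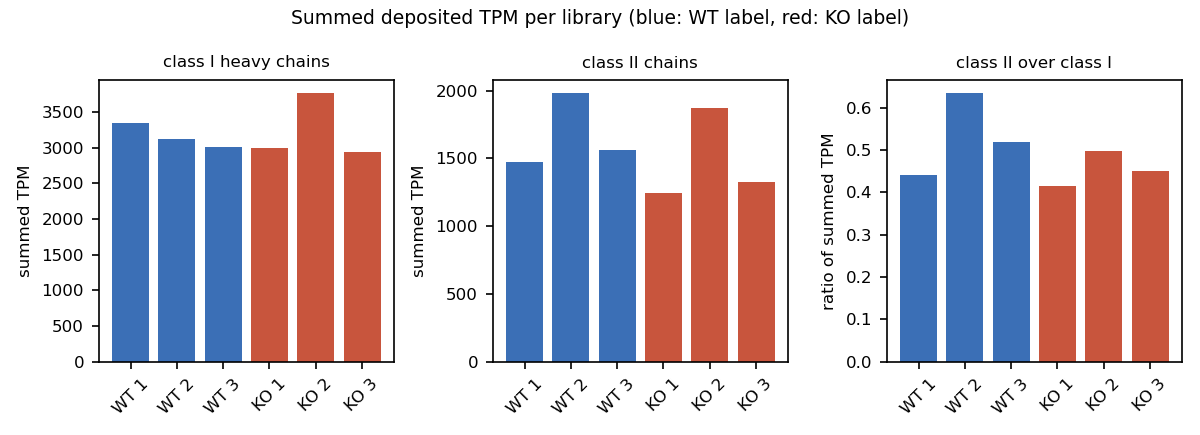
Summed deposited TPM of the class I heavy chains, of the class II chains and their ratio in each library, WT in blue and KO in red. The class I sums run from 2942 to 3759 TPM and the class II sums from 1243 to 1979.6 TPM, and the labels overlap in each panel.

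Among the classical class I heavy chains, H2-D1 (chr17:35263094-35267497) stood at 1712, 1614 and 1421 CPM in WT and 1511, 1722 and 1347 CPM in KO. H2-K1 (chr17:33996012-34000619), the other chain that presents the broad run of cellular peptides in this strain, stood at 983, 1044 and 875 CPM in WT and 819, 1064 and 938 CPM in KO. The labels overlap for both genes. Their log2 fold changes were -0.05 ± 0.15 for H2-D1 (adjusted p = 0.872) and -0.04 ± 0.14 for H2-K1 (adjusted p = 0.898), and scaling by library size alone turned both above 0 (0.07 and 0.08). B2m (chr2:122147687-122153082), the light chain without which heavy chains do not reach the surface, stood at 1821, 2328 and 1773 CPM in WT and 1469.9, 2269 and 1674 CPM in KO. Its log2 fold change was -0.13 ± 0.20. By mean TPM the light chain was the most abundant member, at 4199 in WT and 4032 in KO, above H2-D1 (1667 and 1682), H2-K1 (1066 and 1083) and the class II chain H2-Aa (892 and 826). In this order the libraries of B2m lie apart from those of H2-D1, and those of H2-D1 from those of H2-K1. The ranges of H2-K1 and H2-Aa overlap, although within each library H2-K1 stood above H2-Aa.

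The non-classical class I genes encode less variable chains with narrower ligands. The one with the smallest p was H2-T23, which encodes Qa-1. Qa-1 shows leader peptides of other class I chains to the NKG2A receptor of NK and T cells. H2-T23 (chr17:36029977-36032701) stood at 57.3, 54.4 and 48.0 CPM in WT and at 64.5, 85.0 and 82.4 CPM in KO. Every KO library lay above every WT library, with KO 1 nearest to WT. The log2 fold change was 0.54 ± 0.13 (adjusted p = 0.145), and by DESeq2 0.53 with an adjusted p of 0.0139. Its transcript is 95.6% identical over 1068 bases to H2-T-ps, which RefSeq annotates as protein-coding and which held at most 1.09 CPM in a library.

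H2-Q4 (chr17:35379617-35384674), a Q-region chain that encodes Qb-1, stood at 41.7, 30.7 and 36.3 CPM in WT and 38.5, 58.6 and 49.1 CPM in KO. The labels overlap through KO 1, and the log2 fold change was 0.43 ± 0.17 (adjusted p = 0.237). H2-M3 (chr17:37270234-37274485), which binds N-formylated peptides of bacteria and mitochondria, stood at 8.41, 7.34 and 8.53 CPM in WT and 9.04, 11.2 and 9.88 CPM in KO. Every KO library lay above WT, by a log2 fold change of 0.31 ± 0.13 (adjusted p = 0.239).

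H2-T22 (chr17:36037128-36042742) went the other way in value. This chain, a ligand of gamma-delta T cells, stood at 213, 195.5 and 217 CPM in WT and 192, 192 and 148 CPM in KO. All KO libraries lay below WT, KO 1 and KO 2 by little, and the log2 fold change was -0.23 ± 0.13 (adjusted p = 0.337). Its near-copy H2-T10, annotated as a transcribed pseudogene and 97.0% identical over 1485 bases, averaged 9.45 CPM in WT and 10.4 CPM in KO. The sources used here do not say how reads that fit both were assigned.

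H2-Q6 and H2-Q7 encode the Qa-2 antigen. H2-Q6 stood at 21.2, 21.1 and 21.3 CPM in WT and 20.4, 34.7 and 25.8 CPM in KO, which places KO 1 below WT and the other KO libraries above. H2-Q7 stood at 19.5, 19.6 and 17.8 CPM in WT and 16.9, 25.6 and 20.0 CPM in KO, again with KO 1 lowest and KO 2 highest. The pair are 94.7% identical over 1031 bases, and their log2 fold changes were 0.35 ± 0.18 and 0.13 ± 0.15. H2-Q1 stood at 19.1, 18.5 and 15.5 CPM in WT and 17.9, 19.1 and 19.2 CPM in KO, with a log2 fold change of 0.08 ± 0.11.

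Below these, H2-Q10 averaged 9.94 CPM in WT and 8.32 in KO, H2-T24 4.16 and 3.66, H2-K2 2.33 and 3.07, and H2-Q5 1.74 and 2.57. H2-T-ps, H2-M9 and H2-M2 were tested at under 1 CPM on average, and H2-M9 spanned 0 to 0.738 CPM within KO. Of the 14 members left out by the filter, 10 had no count in any library: H2-M10.1 to H2-M10.6, H2-M10.5-ps1, H2-M11, H2-T3 and the class II pseudogene H2-Ea-ps. With a count of 0 in these libraries each could be present at up to 0.0403 to 0.0490 CPM (3 counts, for counting error only). The M10 genes are known from vomeronasal neurons and H2-T3 from gut epithelium. The other 4, H2-Q2, H2-M5, H2-Bl and H2-M1, reached at most 37 counts in a library.

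The class II chains of at least 10 CPM shared much of one order of the libraries, with WT 2 highest and the labels overlapping. H2-Aa (chr17:34282744-34287823), the alpha chain of the I-A molecule, stood at 471, 679.9 and 503 CPM in WT and 392, 598 and 468 CPM in KO. H2-Ab1 (chr17:34263227-34269418), its beta chain, stood at 222, 302 and 210.4 CPM in WT and 179, 232 and 154 CPM in KO. H2-Eb1 (chr17:34305867-34316674), the beta chain of I-E, stood at 286, 377 and 282 CPM in WT and 227, 310.2 and 221 CPM in KO. In each of the 3 genes KO 2 lay above WT 1 and WT 3, while KO 1 or KO 3 was the lowest library.

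The log2 fold changes were -0.18 ± 0.20 for H2-Aa (adjusted p = 0.638), -0.38 ± 0.19 for H2-Ab1 (adjusted p = 0.313) and -0.32 ± 0.18 for H2-Eb1 (adjusted p = 0.345). H2-Eb1 has its mate missing here: the I-E alpha gene is the pseudogene H2-Ea-ps in this strain background, and it had no count. Without the library WT 2 the log2 fold change of H2-Aa was 0.0015.

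Peptide exchange in class II is done by H2-DM, with H2-DO as its inhibitor. The DM chain H2-DMb1 stood at 26.2, 33.4 and 26.2 CPM in WT and 22.4, 29.1 and 23.6 CPM in KO, a log2 fold change of -0.19 ± 0.14. H2-DMa stood at 17.8, 24.1 and 17.8 CPM in WT and 15.6, 22.3 and 15.5 CPM in KO, a log2 fold change of -0.16 ± 0.18. Both had WT 2 as the highest library and KO 2 next, as the I-A chains did. In deposited TPM, however, H2-DMa stood at 4.32, 21.2 and 5.44 in WT and 6.58, 21.9 and 14.3 in KO, a wider spread than that of its counts and a mean with the opposite direction (10.3 in WT and 14.3 in KO). What separates the 2 units for H2-DMa was not tested. H2-DMb2, 95.4% identical to H2-DMb1 over 848 bases, averaged 4.22 and 5.17 CPM in WT and KO, and H2-Oa (0.883 and 1.29) and H2-DMb2 were the 2 class II members with log2 fold changes above 0 (0.54 ± 0.33 and 0.29 ± 0.17). H2-Ob averaged 2.74 and 2.39 CPM and H2-Eb2 0.263 and 0.243 CPM.

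Cd74, the invariant chain that escorts class II out of the endoplasmic reticulum, stood at 485, 646 and 534 CPM in WT and 402, 579 and 376 CPM in KO. The labels overlapped, and the log2 fold change was -0.30 ± 0.19 (adjusted p = 0.421). Ciita (chr16:10480014-10531064), the class II coactivator, stood at 11.9, 17.4 and 12.7 CPM in WT and 9.16, 10.9 and 8.60 CPM in KO. All KO libraries lay below WT, by a log2 fold change of -0.55 ± 0.17 that missed the threshold (adjusted p = 0.174). Across Ciita, Cd74 and the 5 class II members of at least 10 CPM, the library WT 2 was the highest in 7 of 7, and the lowest was KO 3 in 5 and KO 1 in 2. Among the 8 class I members of at least 10 CPM, KO 2 was the highest in 6 and WT 2 in none. WT 2 was, however, also the highest library of B2m, Tapbp and Cd1d1, while the remaining accessory members were highest in a KO library. The class II members under 10 CPM, H2-DMb2, H2-Ob, H2-Oa and H2-Eb2, were not highest in WT 2.

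**Figure D4:**
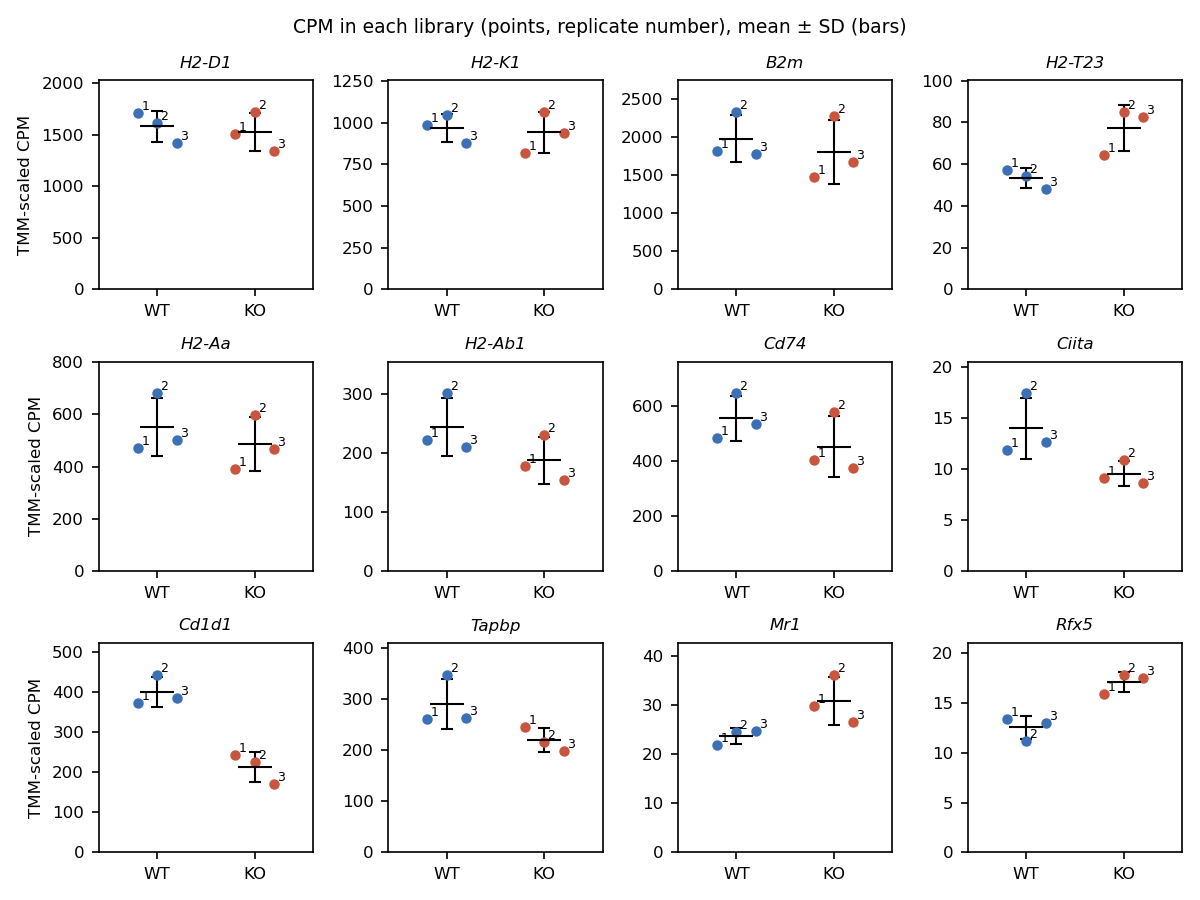
CPM of selected members in each library, each point carrying its replicate number, with the mean and SD of each label (n = 3). WT 2 is the highest point of the class II chains, Cd74 and Ciita, and also of B2m, Tapbp and Cd1d1. H2-T23 and Rfx5 are higher in all KO libraries and Cd1d1 is lower.

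Class II transcript depends on how many class II cells the tissue holds, and in bulk tissue fewer cells of a type and less RNA per cell cannot be told apart. Relative to the WT mean, the summed CPM of the class II chains was 0.884, 1.22 and 0.896 in WT and 0.724, 1.03 and 0.764 in KO. Macrophage markers summed to 2275, 2585 and 2127 CPM in WT and 2291, 2944 and 3076 CPM in KO. This sum shared part of the class II order, with WT 2 highest in WT and KO 2 above KO 1, but KO 3 was its highest library. All 15 of 15 macrophage markers had log2 fold changes above 0 (median 0.26, none past the threshold). Dendritic cell markers summed to 107, 128 and 124 CPM in WT and 134, 158 and 163 CPM in KO, with 5 of 11 log2 fold changes above 0 and none past the threshold. One gene, Clec10a, made up 44.1% to 64.0% of that sum, at 57.5, 59.6 and 54.7 CPM in WT and 76.0, 100.2 and 104 CPM in KO. The other 10 markers, summed without it after the data were seen, gave 49.9, 68.2 and 69.2 CPM in WT and 58.2, 58.0 and 58.8 CPM in KO, within the WT range. B and plasma cell markers summed to 533, 557 and 629.9 CPM in WT and 511, 491 and 413 CPM in KO. That sum rests largely on Xbp1, which many secretory cells express, and on Ighm, at 226, 329.7 and 333 CPM in WT and 172, 145 and 108 CPM in KO, while 10 of the 11 markers had log2 fold changes above 0. Without Xbp1 and Ighm the sums were 52.5, 30.7 and 57.4 CPM in WT and 74.6, 99.6 and 65.5 CPM in KO, higher in every KO library. The largest part of this remainder was Igkc, at 22.3, 18.3 and 34.6 CPM in WT and 41.7, 54.8 and 32.5 CPM in KO, which overlap. Taken singly, 2 of the 11 markers lay above WT in all KO libraries and 1 below, so the separation of the sums depends on which genes are left out. The summed class II level in KO 3 was thus among the lowest, while its macrophage sum was the highest of the 6, also with the most abundant macrophage marker, Lyz2, left out. The part of these cells in the class II values was not tested.

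**Figure D5:**
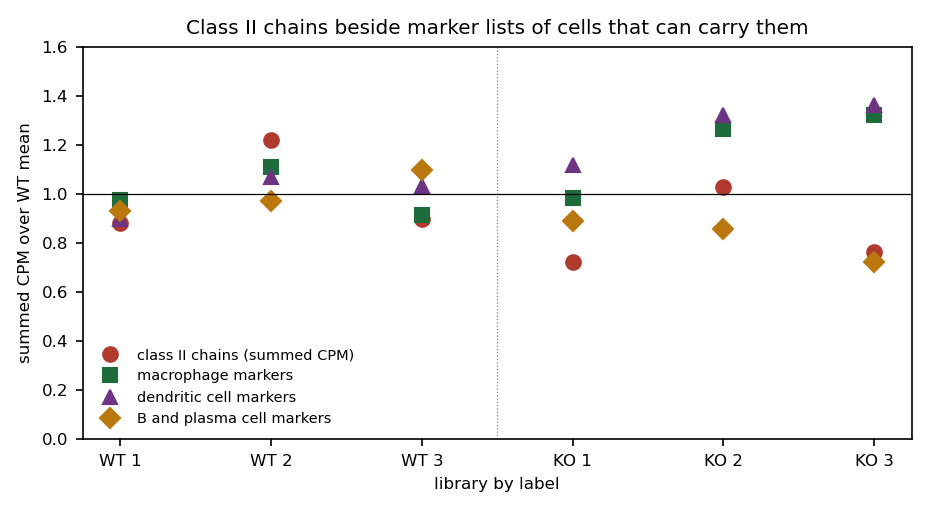
Summed CPM of the class II chains and of 3 marker lists in each library, divided by the mean of the WT libraries. In KO 3 the class II sum is 0.764 of the WT mean while the macrophage sum is 1.32; the dendritic cell sum of 1.36 rests on Clec10a and is 0.942 without it.

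Peptides for class I are cut by the immunoproteasome, carried into the endoplasmic reticulum by TAP, tethered there by tapasin and trimmed by ERAP1. Tap1 (chr17:34187556-34197225), a subunit of the transporter, stood at 27.0, 24.1 and 29.1 CPM in WT and 27.2, 34.5 and 26.7 CPM in KO, with overlapping labels and a log2 fold change of 0.14 ± 0.13. Its partner Tap2 (chr17:34204479-34216321) stood at 38.9, 34.0 and 37.7 CPM in WT and 42.3, 45.6 and 39.1 CPM in KO. Tap2 was higher in every KO library, though by a log2 fold change of just 0.20 ± 0.09 (adjusted p = 0.285). Tapbp (chr17:33919478-33929290), which encodes tapasin, had the opposite sign: 260.4, 346 and 263 CPM in WT and 244, 216 and 199 CPM in KO. All KO libraries lay below WT, with a log2 fold change of -0.40 ± 0.15 (adjusted p = 0.209).

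Tapbpl, the tapasin relative TAPBPR that edits peptides, stood at 20.7, 17.6 and 22.1 CPM in WT and 23.3, 17.3 and 18.9 CPM in KO, a log2 fold change of -0.03 ± 0.14. Erap1 (chr13:74639573-74693205), the trimming aminopeptidase, stood at 68.2, 72.8 and 62.9 CPM in WT and 66.4, 89.5 and 89.7 CPM in KO. KO 1 lay within the WT range and KO 2 and KO 3 lay above it, and the log2 fold change was 0.27 ± 0.13 (adjusted p = 0.301). Nlrc5 (chr8:94434335-94527272), the class I coactivator, stood at 19.1, 13.4 and 16.2 CPM in WT and 12.3, 19.4 and 15.3 CPM in KO. Its labels overlapped fully, with a log2 fold change of -0.05 ± 0.19 (adjusted p = 0.908).

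Rfx5 (chr3:94950689-94961561) encodes the RFX subunit that binds the X box of both classes. It stood at 13.4, 11.2 and 13.0 CPM in WT and 15.9, 17.8 and 17.4 CPM in KO. Every KO library lay above every WT library, by a log2 fold change of 0.45 ± 0.11 (adjusted p = 0.147; adjusted p = 0.0196 by DESeq2). The coactivators Ciita and Nlrc5 and their DNA-binding partner Rfx5 thus had log2 fold changes of -0.55, -0.05 and 0.45.

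The member with the smallest p was Cd1d1, which encodes CD1d, a class I-like molecule that presents lipids to NKT cells and that adipocytes are known to express. Cd1d1 (chr3:86995834-87012358) stood at 372, 442 and 385 CPM in WT and at 242, 226 and 172 CPM in KO, or 399.96 ± 37.3 against 213 ± 36.9 CPM (SD, n = 3 each). The 2 labels lay well apart, and the gap between the lowest WT and the highest KO library exceeded either SD. The log2 fold change was -0.91 ± 0.15 and did not pass edgeR's quasi-likelihood test over all genes (adjusted p = 0.115). Over the alternatives it ran from -1.01 to -0.77. Cd1d2, a copy that is no member and is 96.5% identical over 1198 bases, stood at 5.70, 5.34 and 5.74 CPM in WT and 3.79, 3.01 and 2.00 CPM in KO, also without overlap (adjusted p = 0.147; adjusted p = 0.0082 by DESeq2), and its highest level of 5.74 CPM lies far below the lowest of Cd1d1.

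Mr1 (chr1:155127874-155146814), which shows microbial vitamin B metabolites to MAIT cells, had the opposite sign. It stood at 21.95, 24.6 and 24.7 CPM in WT and 29.9, 36.2 and 26.6 CPM in KO, with all KO libraries above WT, with a log2 fold change of 0.38 ± 0.13 (adjusted p = 0.191). H2-Ke6 (chr17:34026033-34028055), the dehydrogenase with the MHC prefix, stood at 47.8, 39.1 and 37.2 CPM in WT and 55.0, 46.8 and 56.2 CPM in KO. The labels overlap by KO 2 below WT 1, and the log2 fold change was 0.35 ± 0.12 (adjusted p = 0.202).

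Genes of the wider pathway, in 6 lists, were read from the same fit, and no gene of them passed the adjusted threshold. Of the 14 genes of class I peptide supply and loading, which include members, 10 had log2 fold changes above 0 (median 0.04). The immunoproteasome subunits Psmb8 and Psmb9, encoded beside the Tap genes, had log2 fold changes of 0.36 ± 0.10 and 0.48 ± 0.16 (adjusted p = 0.155 and 0.186). Psmb8 stood at 27.1, 25.5 and 26.1 CPM in WT and 31.1, 37.7 and 32.4 CPM in KO, without overlap.

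Of 9 tested genes of class II peptide supply, 4 had log2 fold changes above 0 and 5 below (median -0.07). Ctsd, a lysosomal aspartic protease, stood at 2319, 3399 and 2439 CPM in WT and 1938, 1855 and 1532 CPM in KO. The labels do not overlap, WT 2 was again the highest library, and the log2 fold change was -0.62 ± 0.19 (adjusted p = 0.173; adjusted p = 0.0193 by DESeq2). March1, the ubiquitin ligase that removes class II from the surface, had a log2 fold change of 0.41 ± 0.17.

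Of the 14 genes of MHC transcription, members included, 10 had log2 fold changes above 0 (median 0.12). Irf1, the interferon-induced factor that binds class I and Ciita promoters, stood at 20.3, 24.6 and 23.5 CPM in WT and 31.7, 48.3 and 43.2 CPM in KO. All KO libraries lay above WT, with a log2 fold change of 0.85 ± 0.16 (adjusted p = 0.119; adjusted p = 7.4e-04 by DESeq2). Among 9 tested genes of interferon gamma signalling, however, 3 had log2 fold changes above 0 and 6 below (median -0.02), and Ifng itself was at or under 0.187 CPM in every library.

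Of 10 tested class I-like genes, members included, 7 had log2 fold changes above 0 and 3 below (median 0.15). The labels did not overlap in 5 of them, against 26.2% of all genes: Mr1 and Procr, the endothelial protein C receptor, lay above in KO, and Cd1d1, Cd1d2 and Hfe, the iron regulator that pairs with B2m, lay below. Hfe stood at 124, 259 and 155 CPM in WT and 75.3, 68.9 and 57.4 CPM in KO, a log2 fold change of -1.42 ± 0.27 (adjusted p = 0.123; adjusted p = 1.7e-05 by DESeq2). WT 2 was the highest library for Hfe as for the class II chains of at least 10 CPM.

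All 7 tested genes of costimulation and inhibitory ligands had log2 fold changes above 0 (median 0.33), as had 9287 of the 17820 genes tested. All KO libraries lay above all WT libraries in 3 of the 7 (background 13.7%). The labels overlapped for Cd48, Cd274, Tnfsf9 and Cd80, with log2 fold changes of 0.33, 0.16, 0.15 and 0.04. Cd86, a ligand of CD28 on antigen-presenting cells, stood at 7.66, 9.12 and 7.68 CPM in WT and 10.1, 11.8 and 12.3 CPM in KO, without overlap. Its log2 fold change was 0.48 ± 0.13 (adjusted p = 0.155; adjusted p = 0.0401 by DESeq2), and those of Cd40 and Icosl were 0.79 ± 0.26 and 0.42 ± 0.12, also without overlap.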

How the data were processed

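RNA-seq of epididymal fat was deposited by the authors as 1 table of 45777 genes for 6 libraries (TruSeq Stranded mRNA, per the labels' protocols). Per the file headers it gives a read count, an FPKM and a TPM for each gene and library. The deposited counts are whole numbers without normalization and entered every test. The deposited TPM, the authors' length-scaled values, set levels of different genes side by side. The authors' deposited FPKM differs from TPM only by a constant within each library, so the class ratio is the same in both by construction, and FPKM entered no result. Per the submitters' processing notes, the build was mm10 and the tools were HISAT2 2.1.0 and Bowtie2 2.3.4.1, StringTie 2.1.3b, FastQC 0.11.7 and bcl2fastq 2.20.0, listed without roles. The sources used here do not say whether strand was used in counting or where reads with several matches went, so near-identical copies, overlapping genes and antisense partners are uncertain.

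A robust quasi-likelihood model of edgeR 4.0.16 under R 4.3.3, with TMM scaling and the label as its sole term, was applied to genes that filterByExpr retained at a count of 10 and a total of 15. All 17820 genes entered the two-sided test and the Benjamini-Hochberg adjustment, with a threshold of 0.05. The SE of a fold change is that whose squared ratio equals the test's F. The floor of 3 counts was 0.0403 to 0.0490 CPM. On simulated counts for these 17820 genes the same test recovered 79 of 107 genes changed by 1 on the log2 scale and 93 of 93 changed by 2, with 3 false calls. The simulation gave every gene the same relative spread (coefficient of variation 0.2004), changed only well-counted genes and made no library stand apart. Its recovery therefore need not hold for the real libraries, where 3 genes passed with all libraries and 1138 without KO 1.

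The members, the lists of pathway and marker genes, the tests and the alternatives were chosen with earlier results of these data known, so no list's count or median is independent support. Members of at least 10 CPM on average, and those of at least 1 CPM with an unadjusted p under 0.05, were given library by library, and others by means or ranges. Of each pathway list the genes with the smallest p were named. Transcript identity was measured with blastn 2.17.0 on the reference transcripts. Promoters and coordinates are RefSeq's of GRCm38.p6, the assembly of mm10, and 15 members had no promoter entry. DESeq2 1.42.0 and limma 3.58.1 gave alternatives.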

Additional observations from a re-analysis of the deposited data

How the results depend on the processing

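Of 724 values of single genes under 13 alternatives, 688 kept their direction and did not cross the threshold. Another 13 passed the threshold where they had not, and 23, in 12 genes, changed sign. The 688 include the DESeq2 values of H2-M9, H2-M2 and H2-Eb2, whose adjusted p was undefined. The genes past the threshold numbered 3, against 1152 with DESeq2 (which left 1736 adjusted p-values undefined), 5 with limma voom, and 1 to 1138 when 1 library was left out, the highest without KO 1. The members past it numbered 0, against 3 with DESeq2 and 0 to 2 when 1 library was left out. Pak4 had a log2 fold change of 0.95 with DESeq2 (adjusted p = 8.5e-06), and 0.85 to 1.06 when 1 library was left out. The class I median, 0.13, was 0.31 without the filter on low counts, which added 4 members to it. The class II median ran from -0.32 to -0.047 when 1 library was left out. With library sizes in place of TMM the median over all genes went from 0.02 to 0.13, and with it H2-D1 to 0.069, H2-K1 to 0.084, H2-Eb2 to 0.0096, Tapbpl to 0.086 and Nlrc5 to 0.072, while 6 of 9 class II members still lay below 0. H2-M9 turned to -0.66 with limma voom. When 1 library was left out, log2 fold changes ran from -0.15 to 0.030 for H2-D1, -0.47 to 0.086 for H2-Q10, -0.23 to 0.097 for Nlrc5, -0.14 to 0.049 for H2-K1, -0.36 to 0.0015 for H2-Aa, -0.36 to 0.0040 for H2-DMa, -0.33 to 0.010 for B2m, -0.46 to 0.16 for H2-Eb2, -0.16 to 0.064 for Tapbpl, -0.39 to 0.094 for H2-T24 and -0.044 to 0.26 for H2-Q7. The cause of these shifts was not tested.

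The replicate numbers of the labels did not pair the libraries: same-numbered libraries correlated in their deviations at -0.17, -0.02 and 0.05. With the replicate block 1 gene and 0 members passed the threshold. Among members under 1 CPM the SE on the log2 scale ran from 0.23 for H2-T-ps to 1.03 for H2-M9, whose KO libraries held 0 to 55 counts.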

Other observations

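The cells that read MHC molecules, and other cells of the fat pad that carry class I, were described by their marker lists, in which no gene passed edgeR's adjusted threshold. T and NK cell markers summed to 41.8, 47.5 and 46.1 CPM in WT and 35.2, 59.5 and 47.8 CPM in KO, so the labels overlapped, but 75.8% to 82.0% of each sum was Ptprc, which all leukocytes express. Of the 11 markers 6 had log2 fold changes above 0 (median 0.08). The coreceptors of class I and class II recognition lay lower in all KO libraries: Cd8a stood at 0.506, 0.821 and 0.946 CPM in WT and 0.104, 0.273 and 0.309 CPM in KO (log2 fold change -1.71, adjusted p = 0.156), and Cd4 at 1.70, 1.98 and 1.70 CPM in WT and 1.52, 1.49 and 1.02 CPM in KO (log2 fold change -0.42, adjusted p = 0.344). Cd8a rested on just 31, 55 and 58 counts in WT and 7, 19 and 23 in KO. These 2 of the 11 markers lay below WT in all KO libraries (background 12.5%), and 0 lay above (background 13.7%). Klrb1c had the smallest p of the markers above 0, with a log2 fold change of 0.91 (adjusted p = 0.220) and overlapping labels. Cd3e, a chain of the T cell receptor complex, had a log2 fold change of 0.68 and Cd3d one of -0.16, both with overlapping labels. Endothelial markers summed to 247, 329 and 298 CPM in WT and 225, 210.2 and 213 CPM in KO, without overlap, and 7 of 8 had log2 fold changes below 0 (median -0.41). Mesothelial markers had log2 fold changes above 0 in 8 of 8 (median 0.55), with sums of 532 to 872 CPM in WT and 855 to 1076 CPM in KO. The neutrophil list had 5 tested markers, 4 of them above 0 (median 0.53), with Ly6g at 0, and summed to 16.8 to 19.1 CPM in WT and 23.4 to 32.2 CPM in KO. Without Mmp9, its most abundant gene, the sums were 6.02, 11.3 and 7.91 CPM in WT and 6.72, 8.83 and 8.08 CPM in KO, which overlap. S100a8, the only tested marker below 0, lay lower in all KO libraries (log2 fold change -1.60, adjusted p = 0.147). Csf3r lay higher in all KO libraries (log2 fold change 0.53, adjusted p = 0.199), and S100a9 had a log2 fold change of 1.55 with overlapping labels. Progenitor and fibroblast markers lay above 0 in 5 of 8 (median 0.23).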
